A study of Mus musculus with 2 samples.

Results

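A set of 9 genes that handle lipids in myeloid cells were followed through mouse bone marrow cultures with and without heme: Lpl, Fabp4, Fabp5, Plin2, Pltp, Apoe, Abca1, Abcg1 and Gpnmb. They were taken by name, with earlier results of these data known, and all 9 are among the 26124 genes of the matrices. Counts of called members are therefore a description, also where the share of all genes stands beside them. Lineage-negative progenitors from the marrow of C57BL/6 mice aged 8 to 10 weeks were cultured with GM-CSF (20 ng/ml, and 40 ng/ml in the fresh medium of day 2), a growth factor under which they give dendritic cells, macrophages and neutrophils. On day 3 albumin loaded with heme (300 µM) was added to one set of cultures, and albumin without heme to the other, the control. Cells of culture days 0, 3, 4, 5 and 7 were marked with hashtag antibodies for the day and pooled. Each of the 2 groups was thus 1 single-cell library holding 5 cultures. The paper describes separate cultures that were started on different days, so differences between days also hold differences between cultures. The cultures of days 0 and 3 had received no heme and give the difference between the libraries before exposure. Genes of the later heme cultures were nevertheless counted in them: Marco stood at 8.11 CPM on day 0 and 8.28 CPM on day 3 in the heme library, against 0.161 and 0.0680 CPM in control. Hmox1, the gene of the heme-degrading enzyme, stood on day 3 between 147 and 289 CPM in heme and between 18.3 and 46.8 CPM in control over classes of cells with 500 to 5000 genes. The part of RNA or cells shared within each pool in the values of days 0 and 3, and so in ratios divided by day 3, was not tested. No genetic change is named for the animals, and both groups received albumin.

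Macrophages take up lipid as free fatty acids, as lipoproteins and as the membranes of dead cells. Lipoprotein lipase releases fatty acids outside the cell, fatty acid binding proteins carry them inside it, and perilipins coat the droplets in which they are stored. Excess cholesterol is handed to lipoprotein particles by the transporters ABCA1 and ABCG1, whose genes are switched on through liver X receptors (LXR) when sterols accumulate.

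After filtering, 9685 control and 9941 heme cells remained, with medians of 11838 and 11045 unique molecular identifiers (UMIs) a cell. UMIs count transcript ends, so levels of different genes need no correction for length. They were summed over the cells of a culture (6213167 to 34647365 UMIs a culture) and are given per 1000000 UMIs of the culture (CPM). Ratios are given with 95% intervals for counting error only. A gene is called at least 2-fold higher or lower where its ratio is at least 2 or at most 0.5, the interval leaves out 1 and both sides together hold at least 20 UMIs. Neither group had a replicate library, so no test between conditions was possible. In such sums, fewer cells of a type and less RNA per cell cannot be told apart. Over all genes, the median log2 ratio of heme to control was 0.34, 0.26, 0.25, 0.22 and 0.29 on days 0, 3, 4, 5 and 7. Another fact of the libraries touches the results, the limit of 5000 detected genes. Among the cells with 1 hashtag of culture day 3 and later, it removed 4.82% to 8.34% in control cultures and 16.4% to 33.9% in heme cultures. The libraries shared 33 barcodes among the kept cells.

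The genes separated into 3 courses after heme. Abca1 and Pltp, of which Pltp encodes the phospholipid transfer protein of plasma lipoproteins, stayed at or below 2.75 CPM in heme cultures after day 3 while the control cultures gained them. Plin2, the gene of a droplet coat protein, and Gpnmb, that of a glycoprotein of lysosomes and the cell surface, stood higher with heme from day 4. Lpl climbed in both libraries, and further with heme. Abcg1 also ended higher with heme on day 7, after a dip in the heme library on day 4 (42.3 CPM, against 57.5 CPM on day 3). Among the members, 3 were called higher and 2 lower in heme on day 4, where 9.01% of all genes tested were called higher and 2.83% lower. On day 5 these counts were 2 and 2, against 8.79% and 3.56% of all genes, and on day 7 they were 2 and 3, against 14.6% and 7.45%. No member was called on day 3, before heme, when 7.34% of all genes were called higher and 0.444% lower.

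**Figure D1:**
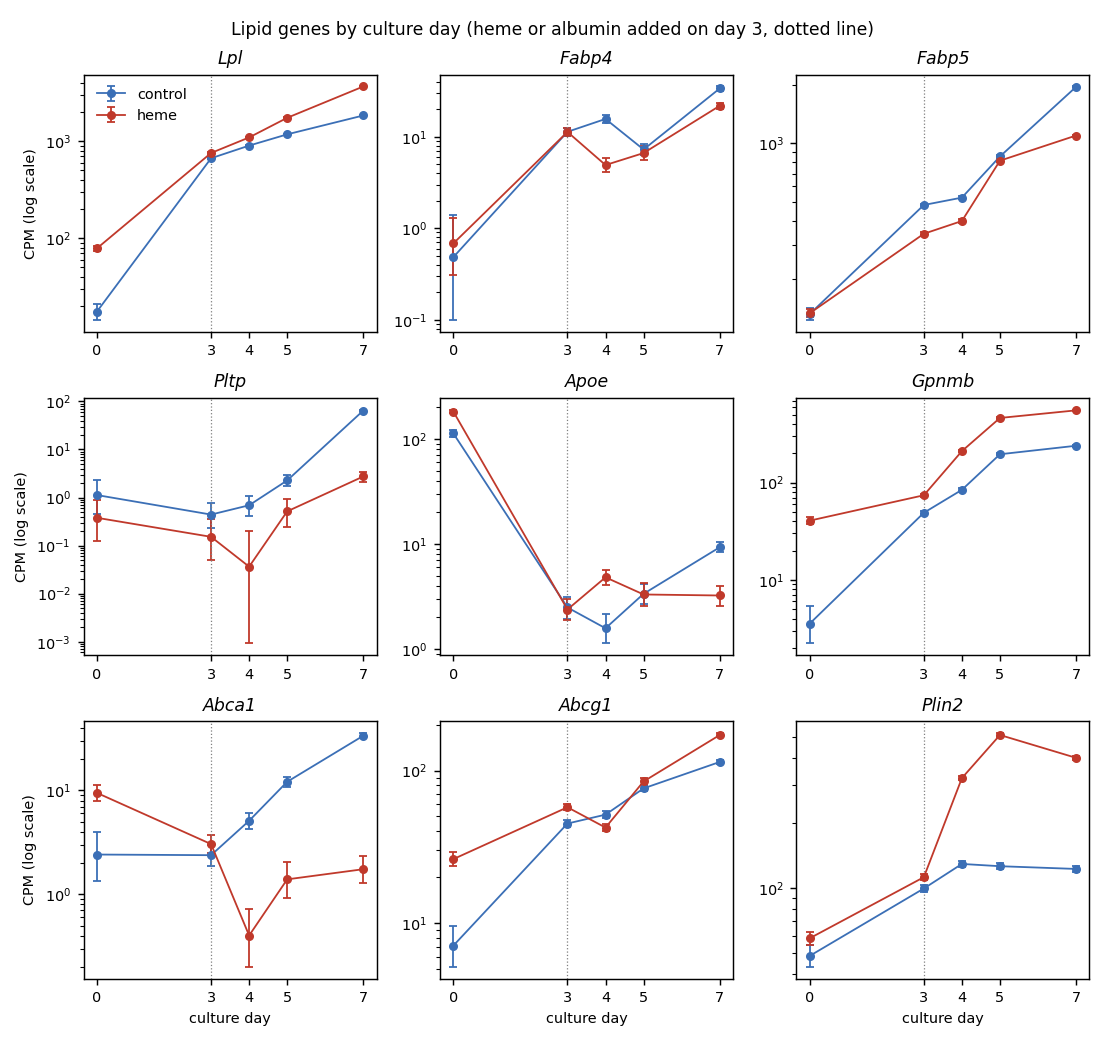
Level of each lipid gene (CPM, log scale) against the culture day in the control (blue) and heme (red) library, with 95% counting intervals as bars and the day of addition as a dotted line. Abca1 and Pltp part downwards in heme after day 3, to 1.74 and 2.75 CPM on day 7 against 33.7 and 64.6 CPM in control, whereas Plin2 and Gpnmb part upwards.

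Abca1 and Pltp were both lower with heme, and Plin2 and Gpnmb were both higher, so their promoters are shown for comparison as the 150 bases before the transcription start, 5′ to 3′ on the gene's strand (RefSeq, GRCm38.p6). Capitals mark matches to the motifs named after the sequences.

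Abca1, chr4:53159896-53160045, minus strand: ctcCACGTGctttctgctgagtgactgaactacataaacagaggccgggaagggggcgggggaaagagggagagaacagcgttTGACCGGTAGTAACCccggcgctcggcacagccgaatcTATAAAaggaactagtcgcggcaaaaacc
Pltp, chr2:164857709-164857858, minus strand: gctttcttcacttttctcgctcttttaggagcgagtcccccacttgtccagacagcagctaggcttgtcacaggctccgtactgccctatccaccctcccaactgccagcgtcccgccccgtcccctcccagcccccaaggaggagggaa
Gpnmb, chr6:49036368-49036517, plus strand: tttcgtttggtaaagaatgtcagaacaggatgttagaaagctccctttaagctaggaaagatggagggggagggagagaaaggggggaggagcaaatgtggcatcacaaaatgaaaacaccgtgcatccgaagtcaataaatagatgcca
Plin2, chr4:86670060-86670209, minus strand: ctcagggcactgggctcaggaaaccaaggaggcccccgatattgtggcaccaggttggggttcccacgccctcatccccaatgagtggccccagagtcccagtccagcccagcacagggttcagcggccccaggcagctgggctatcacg

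The search covered 5 motifs on both strands of the 250 bases before each start. The LXR element known from the Abca1 promoter, GGTTA and GGTCA set 5 bases apart, lay on the strand opposite the gene 67 to 53 bases before the Abca1 start, where the printed strand shows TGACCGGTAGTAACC, and was found in 0.0457% of 32851 promoters (15 promoters). Abca1 also held an E-box, CACGTG, 147 to 142 bases before the start (6.02% of promoters) and a TATA box, TATAAA, 29 to 24 bases before it (12.4%). The antioxidant response element TGACNNNGC, with N for any base (10.2%), and the AP-1 site TGACTCA (4.46%) were not found in Abca1, and none of the 5 motifs was found in the windows of Pltp, Gpnmb or Plin2. A match describes letters and is not a bound site. The LXR motif was written after the element of Abca1, so its match there was given in advance. LXR elements spelled otherwise were not searched for, so the lack of a match elsewhere leaves such elements open. The promoter table also held Apoe, and did not hold Lpl, Fabp4, Fabp5 or Abcg1.

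Abca1 carries cholesterol and phospholipid out of the cell to lipid-poor apolipoprotein A-I. In control cultures it stood at 2.41, 2.38, 5.10, 12.1 and 33.7 CPM on days 0, 3, 4, 5 and 7. In heme cultures it stood at 9.48, 3.04, 0.401, 1.39 and 1.74 CPM on the same days. The libraries were close on day 3 (ratio 1.28, interval 0.933 to 1.76), and on day 4 the heme level lay below both its own day 3 level and the control. The ratios of heme to control on days 4, 5 and 7 were 0.0785 (0.0383 to 0.145), 0.115 (0.0745 to 0.170) and 0.0518 (0.0379 to 0.0694). From day 3 to day 7 Abca1 was 14.1-fold higher in control (11.1 to 18.3) and 0.573 times its day 3 level in heme (0.396 to 0.818). The difference between the libraries over time was not tested. Over this interval 8 members were called higher in control and 6 in heme, against 15.6% and 12.2% of all genes, and none lower, against 8.61% and 9.16%.

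Few heme cells held any Abca1 UMI. With each cell thinned to 3000 UMIs, which left out 173 control and 112 heme cells of day 7, an Abca1 UMI was found in 8.62% of control cells and 0.263% of heme cells (exact interval 0.0855% to 0.613%). Before thinning the shares were 25.3% and 1.79%. On day 0, among progenitors, the thinned shares were 1.23% in control and 3.78% in heme, so the share in heme cells of day 7 did not exceed the level in unexposed progenitors of the same pool.

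Abca1 was lower in heme in each group of cells that held enough of its UMIs. Cells were split by S100a8, a calcium-binding protein gene abundant in neutrophils and monocytes, at 1% of a cell's UMIs, and by 3 or more UMIs of Ccr7, the chemokine receptor gene of mature dendritic cells. In cells low in S100a8 and without Ccr7, Abca1 stood at 11.6, 17.1 and 32.1 CPM in control on days 4, 5 and 7, and at 1.23, 2.63 and 1.82 CPM in heme. In Ccr7 cells of day 5 it stood at 21.8 CPM in control (145 cells) and 3.17 CPM in heme (91 cells), a ratio of 0.145 (0.0453 to 0.362). In cells with over 5000 genes, which the filter leaves out, the ratios on days 4, 5 and 7 were 0.173, 0.392 and 0.0980, so the difference was smaller there on each day, and all 3 remained called lower. With all cells of 500 or more genes the ratios of days 4 and 5 were 0.141 and 0.261.

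Abcg1, the gene of a transporter that passes cholesterol to larger lipoproteins and like Abca1 an LXR target, followed another course. It stood at 7.08, 44.9, 51.4, 76.5 and 114 CPM in control and at 26.2, 57.5, 42.3, 84.9 and 171 CPM in heme. The heme level was below control on day 4 (ratio 0.822, 0.760 to 0.890) and above it on day 7 (1.50, 1.44 to 1.57), and Abcg1 was not called after day 3. Its directions on days 4 and 5 depend on the processing: with all cells that carried 1 hashtag the day 4 ratio was 1.02, and with TMM scaling the day 5 ratio went from 1.11 to 0.916. In S100a8-low cells without Ccr7, Abcg1 on day 7 stood at 116 CPM in control and 186 CPM in heme, where Abca1 differed in the opposite direction.

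**Figure D2:**
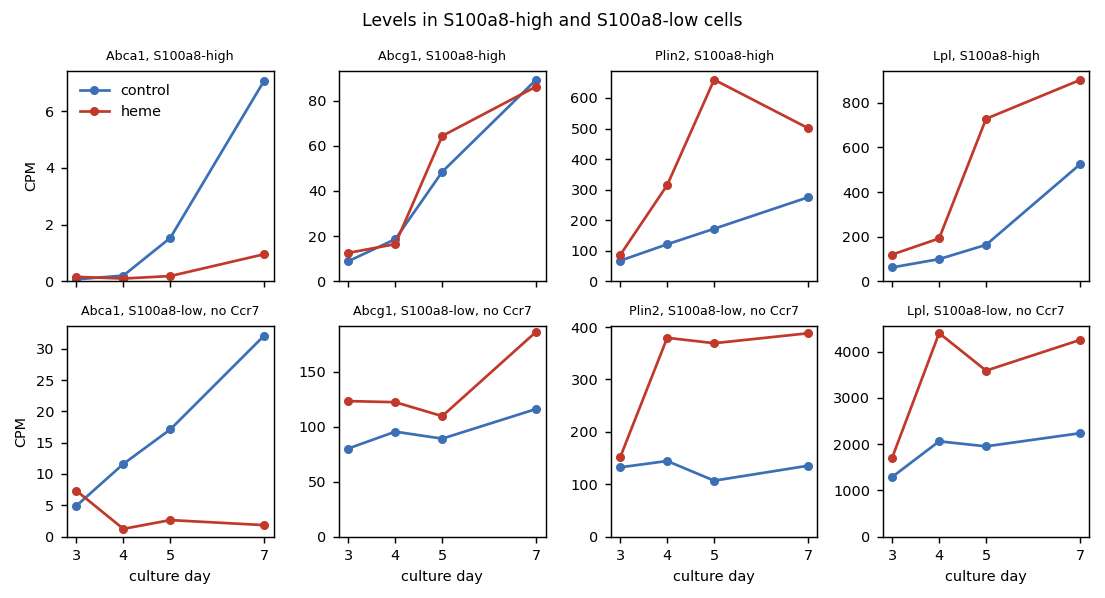
Levels (CPM, linear scale from 0) of Abca1, Abcg1, Plin2 and Lpl against culture day in S100a8-high cells (upper row) and S100a8-low cells without Ccr7 (lower row), control in blue and heme in red. In the lower row Abca1 reaches 32.1 CPM in control and 1.82 CPM in heme on day 7 while Abcg1 lies at 116 and 186 CPM, and Plin2 in heme is above control in both rows on days 4, 5 and 7.

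Pltp stood at 1.13, 0.442, 0.691, 2.27 and 64.6 CPM in control over the days 0, 3, 4, 5 and 7. The heme values were 0.379, 0.152, 0.0364, 0.516 and 2.75 CPM, of which the day 4 value is 1 UMI. Both libraries were near 0 until day 5, and the gain by day 7 was steep in control. From day 3 to day 7 the ratio was 146 in control (85.3 to 275) and 18.0 in heme (7.39 to 57.2), each from 13 or fewer UMIs on day 3. The heme level was 0.227 times control on day 5 (0.104 to 0.448) and 0.0425 times on day 7 (0.0332 to 0.0536). The Pltp ratio of day 3 was 0.344, from 5 and 13 UMIs, and its interval held 1 (0.0961 to 1.03). Divided by that uncertain ratio, the day 5 value was 0.660 and no longer called. After thinning, 13.7% of control cells and 0.526% of heme cells held a Pltp UMI on day 7, compared with 0.206% and 0.0840% of the progenitors of day 0.

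Apoe, the gene of apolipoprotein E, a lipid acceptor secreted by many macrophages, was mainly a gene of day 0 here. It stood at 113, 2.48, 1.57, 3.35 and 9.29 CPM in control and at 182, 2.37, 4.81, 3.30 and 3.23 CPM in heme. Day 0 lies over 10 times above each later culture. Day 0 Apoe was concentrated in cells with 3 or more UMIs of Cpa3 or Gata2, from the basophil and mast cell markers. These cells held Apoe at 569 CPM in control and 666 CPM in heme, against 42.0 and 37.2 CPM in cells with no UMI of either. They held 56.9% of the Apoe UMIs of the control culture and 69.5% of those of the heme culture. The level of 569 CPM came from 117 cells and that of 666 CPM from 323 cells. The same split by the progenitor markers Mpo or Elane gave 227 against 73.0 CPM in control and 140 against 238 CPM in heme. Split by the erythroid markers Car1 or Klf1, the levels were 38.5 against 192 CPM in control and 187 against 158 CPM in heme. The splits overlap, and which cell type held Apoe was not tested.

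After heme, Apoe was called higher on day 4 (ratio 3.06, 2.14 to 4.45) and lower on day 7 (0.347, 0.271 to 0.441), and on day 5 the interval held 1 (0.986, 0.702 to 1.38). On day 4 the 10 cells richest in Apoe held 51.5% of its UMIs in heme. S100a8-low cells without Ccr7 stood that day at 2.05 CPM in control and 2.10 CPM in heme, and S100a8-high cells at 1.14 and 2.60 CPM. These groups held 12 and 54 of the 132 Apoe UMIs of the heme culture (9.09% and 40.9%), and 21 and 17 of the 41 in control. The rest of the UMIs lay in S100a8-low cells with a Ccr7 UMI. Such cells were few, since the 2 groups made up 14.3% and 83.4% of the heme cells. Their part in the day 4 call was not tested. Without the 10 richest cells of each culture the ratio of day 4 was 2.17 (1.37 to 3.52) and that of day 7 was 0.365 (0.268 to 0.491). In cells with over 5000 genes these ratios were 1.56 and 0.563, neither called.

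Under the limit of 5000 genes, Plin2 was the member with the highest ratio on days 5 and 7, whereas over all cells with 1 hashtag Gpnmb was higher on both days (6.32 and 4.30, against 3.55 and 3.25 for Plin2). It stood at 48.4, 99.3, 129, 126 and 122 CPM in control, almost level from day 4, and at 58.5, 112, 322, 509 and 399 CPM in heme. The libraries lay close on day 3 (ratio 1.13, 1.07 to 1.18). On days 4, 5 and 7 the ratios were 2.49 (2.40 to 2.60), 4.04 (3.89 to 4.21) and 3.26 (3.15 to 3.38). Of the cells thinned to 3000 UMIs, 30.2% of control and 56.0% of heme cells held a Plin2 UMI on day 4, and 28.8% and 61.5% did on day 7, compared with 11.7% and 15.5% on day 0.

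Plin2 was higher with heme in S100a8-high and in S100a8-low cells. In S100a8-high cells the 8 neutrophil markers summed to 140751 CPM in control and 172950 CPM in heme on day 7. These sums include S100a8, the gene that defines the group, so they were bound to be high. S100a8-high cells carried Plin2 at 121 and 315 CPM on day 4, at 172 and 659.8 CPM on day 5 and at 275 and 501 CPM on day 7, control before heme. The ratios were 2.60 (2.47 to 2.74), 3.84 (3.63 to 4.06) and 1.82 (1.57 to 2.12). In S100a8-low cells without Ccr7 the levels were 144 and 379.7 CPM, 107 and 369 CPM, and 135 and 388 CPM, with ratios of 2.63, 3.46 and 2.87. On day 3 the ratio was 1.28 in the former and 1.15 in the latter. Among S100a8-high cells the members called higher on days 4, 5 and 7 numbered 3, 2 and 0, against 12.7%, 9.72% and 10.4% of all genes, and those called lower 0, 0 and 1, against 0.927%, 1.74% and 3.5%. Gpnmb, among those called higher on day 4, already stood at 39.2 CPM in heme and 5.42 CPM in control on day 3, before heme. In S100a8-low cells without Ccr7 the numbers were 3, 2 and 2 higher, against 10.5%, 11.3% and 13.1%, and 2, 2 and 3 lower, against 3.1%, 4.02% and 6.69%. Ccr7 cells of day 5 showed 70.1 CPM in control and 105 CPM in heme (ratio 1.50, 1.20 to 1.87), below the 2-fold limit.

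Lpl was the most abundant member in heme on each day from day 3, and in control on days 3 to 5. It stood at 17.5, 667, 901, 1177 and 1841 CPM in control and at 78.6, 756, 1094, 1742 and 3662 CPM in heme. Lpl ratios climbed from 1.13 on day 3 through 1.21 and 1.48 to 1.99 (1.97 to 2.01) on day 7, just under the 2-fold limit. With TMM scaling the day 4 ratio was 0.997, and with all cells that carried 1 hashtag the day 5 ratio was 2.12 and was called. The S100a8-high cells of heme cultures held more Lpl than those of control cultures already on day 3, at 120 against 62.2 CPM. On day 5 the levels were 729 and 163 CPM (ratio 4.46, 4.22 to 4.72). The S100a8-low cells without Ccr7 held far more: 4399 CPM in heme and 2059 CPM in control on day 4, 3587.5 and 1950.2 CPM on day 5, and 4251 and 2234 CPM on day 7. S100a8-high cells made up 83.4% of heme cells and 68.5% of control cells on day 4, so the low-Lpl group was the larger in the heme culture. Within the S100a8-low group the day 4 ratio was 2.14, compared with 1.21 for the culture as a whole.

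Fabp5 encodes the epidermal fatty acid binding protein, which is also abundant in dendritic cells. It stood at 132, 482, 526, 857 and 1958 CPM in control and at 133, 342, 398, 815 and 1099 CPM in heme. The heme cultures were lower on day 3, before heme (ratio 0.711, 0.693 to 0.729), and on day 7 (0.561, 0.554 to 0.569). With TMM or DESeq2 scaling the day 7 ratio was 0.469 and was called lower, whereas in cells with over 5000 genes it was 1.62. Its directions on days 4 and 5 also turned with the cells included, from 0.758 and 0.951 to 1.09 and 1.27 with all cells that carried 1 hashtag.

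Fabp5 was concentrated in Ccr7 cells. They held it at 5393 CPM on day 5 and 6377 CPM on day 7 in control, and at 4913 CPM on day 5 in heme, against 397, 854 and 408 CPM in cells without a Ccr7 UMI. On day 7 the Ccr7 cells were 18.5% of the control cells and carried 61.9% of the Fabp5 UMIs, and the heme culture held 37 of them (1.84%). On day 7 the dendritic cell markers, with the gate gene Ccr7 among them, summed to 18499 CPM in the control Ccr7 cells. Cd74 was the highest of these markers in the whole control culture of that day, at 9888 CPM. In S100a8-low cells without Ccr7 the Fabp5 levels of day 7 were 870.0 CPM in control and 1215 CPM in heme (ratio 1.40, 1.37 to 1.42), the opposite order to the culture sums. Between Ccr7 cells of day 5, heme and control differed little (ratio 0.911, 0.885 to 0.937). Where Ccr7 cells are compared with cells without Ccr7, 4 members were called higher and 1 lower in control on day 5, when 12.2% and 22.8% of all genes were. The higher members were Fabp5, Fabp4, Apoe and Abca1, and Lpl was the lower. In control cells of day 7 the calls were 2 higher (Fabp5 and Fabp4) and 5 lower (Lpl, Pltp, Apoe, Gpnmb and Plin2), against 9.54% and 25.7% of all genes. In heme cells of day 5 they were 3 higher (Fabp5, Fabp4 and Apoe) and 3 lower (Lpl, Gpnmb and Plin2), against 13.4% and 18.8%. Apoe thus turned round within control, from a ratio of 4.97 (3.06 to 7.90) on day 5 to 0.257 (0.153 to 0.409) on day 7.

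Fabp4, the adipocyte fatty acid binding protein gene, was sparse. It stood at 0.483, 11.4, 15.7, 7.27 and 33.8 CPM in control and at 0.682, 11.3, 4.92, 6.65 and 21.9 CPM in heme. On days 3 to 7 the 10 cells richest in Fabp4 held 24.6% to 70.7% of its UMIs, so its culture sums follow few cells. It was called lower in heme on day 4 (ratio 0.313, 0.256 to 0.382), a call that was lost with all cells that carried 1 hashtag (0.514) and turned to 1.14 in cells with over 5000 genes. The day 7 ratio was 0.647 (0.585 to 0.715), and 3.97% of control and 3.37% of heme cells held a Fabp4 UMI after thinning (6.41% and 10.2% before it).

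Gpnmb stood at 3.54, 49.0, 84.4, 196 and 239.7 CPM in control and at 40.6, 74.2, 211, 463 and 554 CPM in heme. It was higher in heme before exposure: the ratio was 11.5 on day 0 (7.50 to 18.5) and 1.51 on day 3 (1.42 to 1.62). Gpnmb, Lpl, Abca1 and Abcg1 were the 4 members called higher on day 0, when 19.1% of all genes were called higher and 1.67% lower. A Gpnmb UMI was found in 11.2% of thinned heme progenitors of day 0 against 1.03% of control progenitors, which sets the background for the shares of day 7, 26.4% in control and 48.7% in heme.

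On days 4, 5 and 7 the ratios of Gpnmb were 2.50 (2.38 to 2.63), 2.36 (2.28 to 2.45) and 2.31 (2.25 to 2.38). With all cells that carried 1 hashtag they were 4.82, 6.32 and 4.30. With TMM scaling they were 2.05, 1.95 and 1.93, with the mean of CPM per cell 2.12, 1.20 and 1.88, and divided by the day 3 ratio 1.65, 1.56 and 1.53.

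Gpnmb in heme cells of day 5 climbed with the number of genes detected in a cell. It went from 160.0 CPM in heme cells with 500 to 1499 genes to 540.3 CPM at 3500 to 4499 genes, 876 CPM at 4500 to 5000 genes and 1842 CPM above 6000 genes. Control cells of day 5 lay between 155 and 266 CPM in every class up to 6000 genes. Heme cells over the limit of 5000 genes stood at 735, 1582 and 1540.0 CPM on days 4, 5 and 7, and those of control at 108, 154 and 317 CPM. On day 5 the heme cells over the limit were 27.1% of the cells with 1 hashtag, and they carried 62.0% of all UMIs and 84.3% of the Gpnmb UMIs. Over the same classes S100a8 went from 101009 CPM in the lowest to 2094 CPM in the highest, and Csf1r, the receptor gene of macrophages and monocytes, went from 97.6 to 233 CPM. The part of cell type and of cell doublets within 1 hashtag in this pattern was not tested.

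**Figure D3:**
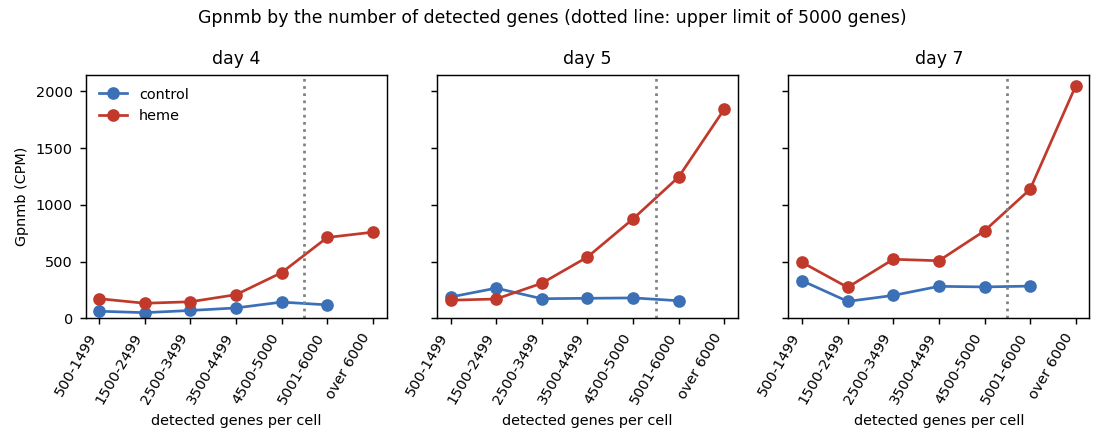
Level of Gpnmb (CPM) in cells grouped by the number of detected genes on days 4, 5 and 7, control in blue and heme in red. The dotted line marks the limit of 5000 genes, and classes under 50 cells are left out. Heme cells climb to 1842 CPM on day 5 and 2048 CPM on day 7 above 6000 genes, while control cells reach at most 331 CPM.

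Gpnmb was higher in heme in S100a8-low cells on each of these days. Without Ccr7 they stood at 153, 230.1 and 277 CPM in control on days 4, 5 and 7 and at 652, 1071 and 645 CPM in heme. The ratios were 4.27 (4.02 to 4.53), 4.66 (4.46 to 4.86) and 2.33 (2.26 to 2.40), compared with 1.37 on day 3. In S100a8-high cells the heme level was higher on day 3, at 39.2 against 5.42 CPM, and on day 4, at 92.1 against 27.7 CPM (ratio 3.32, 2.99 to 3.70), and lower than control on day 5, at 114 against 159 CPM. On day 7 their intervals overlapped, at 100.1 and 96.4 CPM (ratio 1.04, 0.802 to 1.36).

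**Figure D4:**
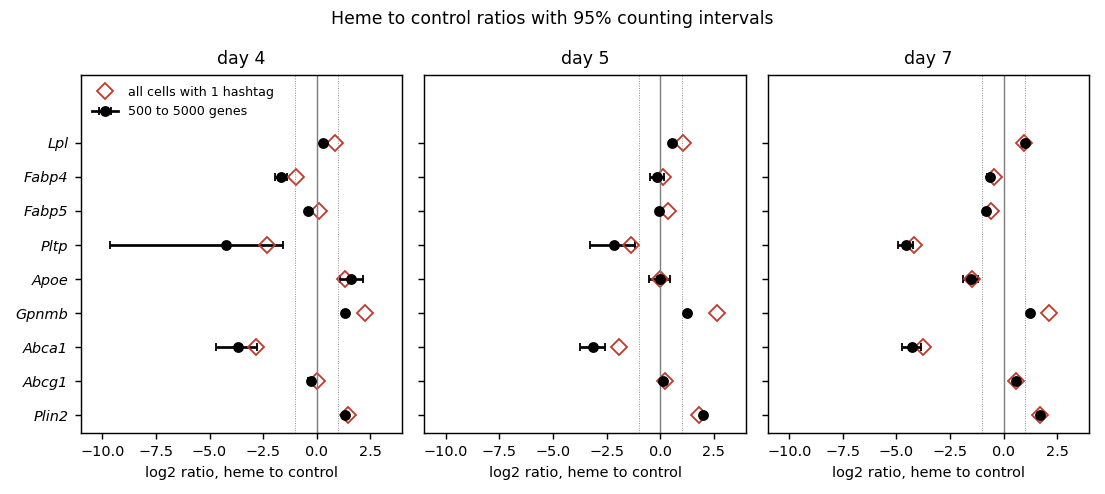
Log2 ratio of heme to control for each lipid gene on days 4, 5 and 7, with 95% counting intervals (black, cells with 500 to 5000 genes) and the same ratio over all cells with 1 hashtag (red diamonds). Dotted lines mark a 2-fold difference. Abca1 and Pltp lie to the left under both filters on each day, Plin2 and Gpnmb to the right, and Gpnmb lies further to the right on each day when all cells are included (from 2.36 to 6.32 as a ratio on day 5). The Pltp value of day 4 rests on 19 UMIs and is not called.

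Groups of day 7 cells were then defined by 3 or more UMIs of a gate gene. Marco, a scavenger receptor, marked 723 heme cells (35.9%) and 13 control cells. Arg1, arginase 1, marked 315 control cells (11.6%) and 5 heme cells, and C1qb, a complement subunit, marked 645 control cells (23.8%) and 13 heme cells. In the control library 87 cells passed both the Arg1 and C1qb gates. Groups under 50 cells are not described. The 8 macrophage markers left after Marco summed to 1231 CPM in the Marco gate, 933 in the Arg1 gate and 1112 in the C1qb gate, against 644 in heme and 422 in control cells with no UMI of a gate gene. They include C1qa and C1qc, complement genes like the gate gene C1qb. The dendritic cell markers summed to 17106 CPM in the C1qb gate, 5689.8 in the Arg1 gate and 2051 in the Marco gate. Control Ccr7 cells of the same day stood at 18499 CPM, and control cells with no UMI of a gate gene at 11086 CPM. Cd74 and H2-Ab1 weigh most in such sums. In the whole control culture of day 7 they stood at 9888 and 1823 CPM, followed by Ccl22 at 638 CPM, with Flt3 at 0.837 CPM. The sums therefore do not measure how dendritic a gate is. None of these markers was at 0 in the 3 gates, and their part in the differences between gates was not tested.

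Marco cells of heme held 4500.25 CPM of Lpl, 32.4 of Fabp4, 1447 of Fabp5, 3.85 of Pltp, 3.01 of Apoe, 663 of Gpnmb, 1.42 of Abca1, 199 of Abcg1 and 381 of Plin2. Set against heme cells with no UMI of a gate gene, 2 members were called higher, Fabp4 (ratio 3.15, 2.56 to 3.90) and Pltp (2.02, 1.19 to 3.52), where 3.65% of all genes were called higher and 6.31% lower. Lpl was 1.60 times and Fabp5 1.94 times the level of the cells without gate genes. For Abca1 the 2 groups could not be told apart at this depth (ratio 0.965, 0.463 to 2.01, from 17 UMIs each), and Plin2 was slightly lower in Marco cells (0.896, 0.861 to 0.933). Low Abca1 and high Plin2 were thus common to heme cells inside and outside the Marco gate. The cells without gate genes held more neutrophil marker RNA, 58345 CPM summed against 3512 CPM in the Marco gate.

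Arg1 cells of control held 59.3 CPM of Abca1 and 109.8 CPM of Pltp, the highest levels of both genes in the day 7 groups described. Against control cells with no UMI of a gate gene both were called higher, at ratios of 2.17 (1.86 to 2.53) and 3.36 (2.97 to 3.81), where 4.64% of all genes were called higher and 6.84% lower. Plin2 was 207 CPM in Arg1 cells and 114 CPM in the cells without gate genes (ratio 1.81, 1.67 to 1.96). C1qb cells held 36.0 CPM of Abca1 and 94.9 CPM of Pltp. Against the cells without gate genes, Pltp was called higher (2.91, 2.61 to 3.24) and Fabp4, Fabp5 and Apoe lower (0.346, 0.352 and 0.262), where 2.02% and 4.94% of all genes were called. The control cells without gate genes included Ccr7 cells, the group richest in Fabp5. Between the control gates, Arg1 cells held 4.09 times the Fabp4 (3.33 to 5.05), 6.43 times the Apoe (4.20 to 10.1) and 2.01 times the Plin2 (1.84 to 2.20) of C1qb cells, 3 members called higher against 3.88% of all genes and none lower against 3.82%, and Abca1 was 1.65 times higher (1.40 to 1.93). Cells that passed both gates count on both sides of this comparison.

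Marco cells of heme were also set against the gated control cells. Relative to Arg1 cells, Abca1 was 0.0240 times (0.0138 to 0.0391), Pltp 0.0350 times (0.0253 to 0.0474) and Apoe 0.158 times as high, whereas Lpl was 2.00 times (1.96 to 2.05) and Gpnmb 2.43 times as high (2.29 to 2.58). These 3 lower and 2 higher calls stood against 5.76% and 12.9% of all genes. Relative to C1qb cells, 2 members were called lower, Abca1 (0.0395, 0.0227 to 0.0641) and Pltp (0.0406, 0.0295 to 0.0545), and 4 higher, Plin2 (3.70, 3.46 to 3.96), Gpnmb (3.01), Lpl (2.70) and Fabp4 (2.30), against 7.53% and 17% of all genes. These gates differ in marker gene and in treatment, which cannot be told apart. The heme cells with no gate gene differed from the control cells with none in the same direction for Abca1 (0.0539, 0.0311 to 0.0871), Pltp (0.0584, 0.0363 to 0.0894) and Plin2 (3.72, 3.52 to 3.92). Of the members 1 was called higher there and 5 lower, against 14.1% and 7.06% of all genes. Fabp4 (10.3 against 40.7 CPM), Fabp5 (747 against 2719 CPM) and Apoe (3.64 against 11.3 CPM) also stood lower in these heme cells. These groups differed in makeup: the neutrophil markers summed to 58345 CPM in heme and 6922 CPM in control, and the dendritic cell markers to 2692 and 11086 CPM. S100a8-high cells of day 7 held 7.08 CPM of Abca1 and 275 CPM of Plin2 in control, and 0.956 and 501 CPM in heme. These Abca1 levels rest on 5 UMIs in 137 control cells and 4 UMIs in 469 heme cells. The part of this makeup in the difference was not tested.

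**Figure D5:**
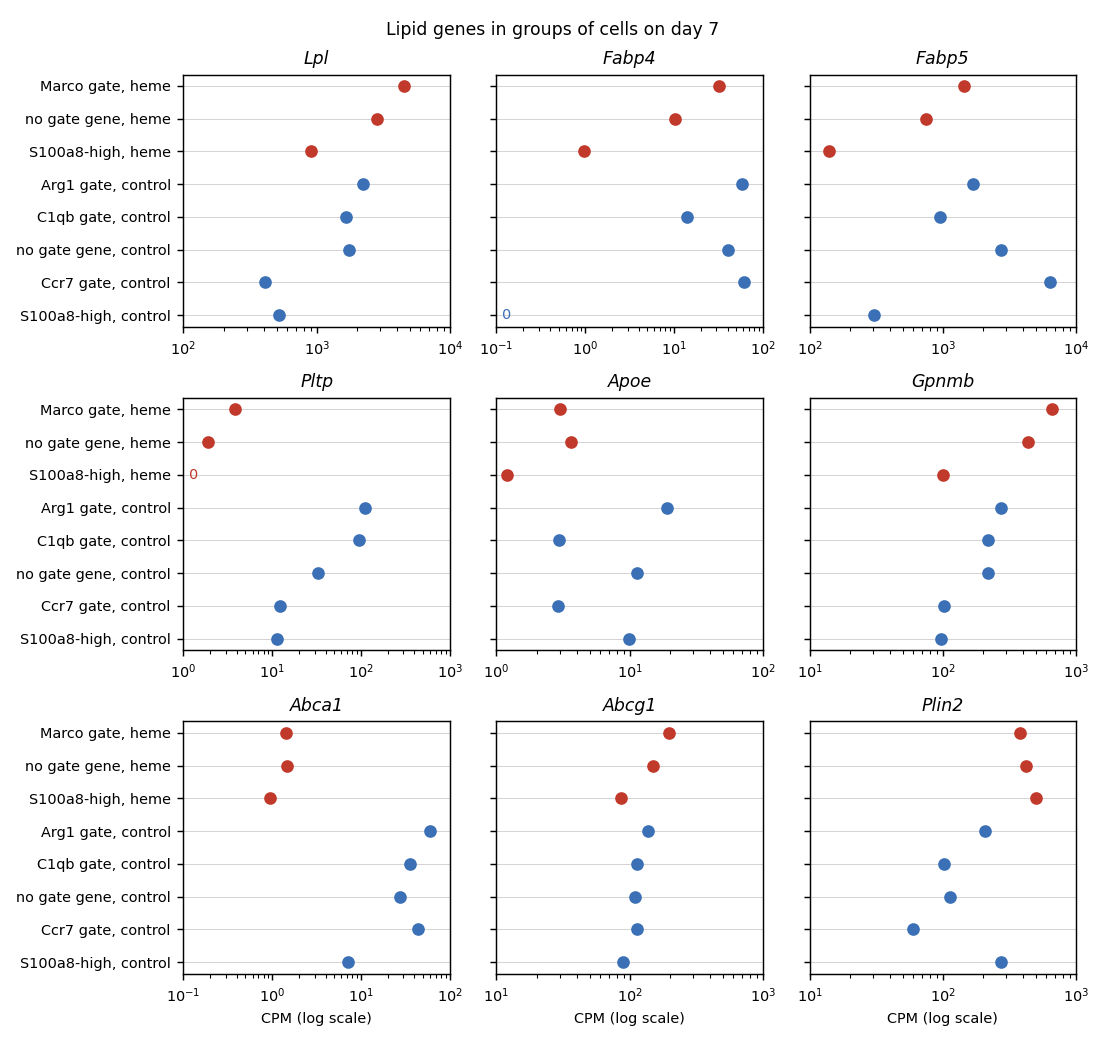
Level (CPM, log scale) of each lipid gene in groups of day 7 cells, heme in red and control in blue, with a 0 where no UMI was counted. Abca1 and Pltp are lower in the 3 heme groups than in each control group shown, Plin2 is higher, and Fabp5 is highest in the control Ccr7 cells at 6377 CPM. In S100a8-high cells Abca1 rests on 5 control and 4 heme UMIs, and Pltp on 8 and 0.

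Other lipid genes were counted in 4 lists, each read against the 14.6% of all genes called higher and the 7.45% called lower on day 7. Counts of day 0 are read against 19.1% of all genes called higher and 1.67% called lower on that day. Of 25 tested genes of nuclear receptors, their targets and efflux, 9 were called higher in heme and 1 lower on day 7, with a median log2 ratio of 0.68 against 0.29 over all genes. On day 0, before heme, 6 of 24 were already called higher, with a median of 0.65 against 0.34 over all genes. The highest were Angptl4, an inhibitor of lipoprotein lipase (7.01, 5.33 to 9.34, from 1.79 to 12.5 CPM), and Nr1h3, which encodes LXRα (6.08, 4.61 to 8.13, from 1.79 to 10.9 CPM). In these culture sums Nr1h3 was thus higher while, of the 2 LXR targets among the members, Abca1 was lower and Abcg1 higher. Whether Nr1h3 and Abca1 differed in the same cells was not tested. The lowest were Abcg3 (0.274) and Tspo (0.515). Of 15 tested uptake genes, 5 were called higher and 1 lower, with a median log2 ratio of 0.85, whereas 7 of 12 were called higher on day 0 with a median of 1.01. The highest of day 7 were the receptors Scarb1 (3.32) and Lrp1 (3.06). The lowest were Fabp1 (0.0347, 0.000857 to 0.206, from 1 heme UMI and 37 control UMIs) and the scavenger receptor Cd36 (0.600). Cd36 had been higher in heme on day 4 (2.13, 2.00 to 2.27), at 119.9 against 56.2 CPM.

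Among 15 tested genes of lysosomal lipid breakdown and lipolysis, 4 were called higher and 2 lower on day 7. Their median log2 ratio was 0.38. Before heme, on day 0, 4 were called higher, with a median of 0.64, when 19.1% of all genes were called higher. Npc1, which exports cholesterol from lysosomes, stood at 39.1 CPM in control and 119 CPM in heme (ratio 3.05), and Lipa, the lysosomal acid lipase, at 131 and 389 CPM (2.97). Gm2a (0.393) and Lipe, the hormone-sensitive lipase (0.429), were the lowest. Of 20 tested genes of storage and fatty acid use, 4 were called higher and 2 lower, shares close to those of all genes, with a median log2 ratio of 0.32. On day 0, 3 of 20 were called higher, against 19.1% of all genes. Dgat2, an enzyme of triglyceride synthesis, had a ratio of 6.51 (5.10 to 8.40), from 2.28 to 14.8 CPM, and Cpt1a, which admits fatty acids to mitochondria, a ratio of 3.72 (3.43 to 4.04). Scd1, a fatty acid desaturase (0.385), and the droplet gene Hilpda (0.487) were the lowest.

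The patterns of the members over the 10 cultures were compared with those of 9638 other genes through Pearson's r of log2(CPM + 1). The cultures share libraries, and days follow each other, so r is a description. Nearest to Lpl were F7 (0.998), Cd302 and Asah1, and nearest to Gpnmb were Tmem184b (0.986), Clec4n and Kif1c. Abca1 was nearest to Unc119b (0.958), Xpa and Haao, and Pltp to Fam162a (0.978), Arg1 (0.977) and Trappc6a. Abcg1 was nearest to Hexa (0.994), Capza2 and Tbc1d9, and Fabp5 to Vim (0.995), Tmem159 and Trip10. Nearest to Plin2 were Ftl1-ps1 (0.979), whose reads may come from the ferritin gene it copies, Srxn1 and Rnf11. Nearest to Apoe were Ddah2 (0.991), Cnn3 and Acss1, and nearest to Fabp4 were Pald1 (0.944), Qpct and Rmnd5b. Between the 2 transporters r was 0.18, and between Abcg1 and Lpl it was 0.95.

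In GENCODE M21 (GRCm38) all 9 members are protein-coding genes. Fabp4 and Fabp5 lie on chromosome 3, at chr3:10204088-10208576 on the minus strand and chr3:10012548-10016607 on the plus strand, with starts 191540 bases apart. Abca1 (chr4:53030787-53159895) and Plin2 (chr4:86648386-86670060), which differed in opposite directions with heme, both lie on the minus strand of chromosome 4. A processed pseudogene of Fabp5, Fabp5l2, is annotated but is not a row of the matrices, so Fabp5 counts could hold or lose reads of such a copy.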

How the data were processed

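Each library came as a deposited matrix of UMI counts, with genes against barcodes, which the authors had produced in Cell Ranger. The matrix headers name version 5.0.0, the submitters' processing notes 4.0.0 and GRCm38.p6. The authors' deposited hashtag calls (HTODemux of Seurat) are text and were used as they stand: barcodes with 1 hashtag numbered 12050 of 13961 in control and 14164 of 17378 in heme. The design text gives exposure times that differ from the labels for day 5, so culture days are used. Cells with 500 to 5000 genes, under 15% mitochondrial and under 30% ribosomal protein UMIs were kept, after the study's methods, which word both last limits the other way round. They left 9685 and 9941 cells. Doublets were removed only through the hashtag calls. The libraries shared 112 barcodes.

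UMIs were summed per library and day with Python 3.11.15, numpy 2.4.6, scipy 1.17.1 and pandas 2.3.3. CPM intervals are exact Poisson, those of ratios exact for 2 Poisson counts, those of shares Clopper-Pearson. They cover counting error at the 95% level. A count of 0 allows up to 3 counts. The calls were tested on simulated data. Alternatives used TMM (edgeR 4.0.16) and DESeq2 1.42.0 size factors, other filters, gates at 1 or 10 UMIs or 100 CPM, and division by the day 3 ratio. The Ccr7 and S100a8 groups, the cells over 5000 genes and the classes of detected genes were added after seeing the data. So were the splits of day 0 cells for Apoe and the omission of the 10 richest Apoe cells. All 9 members were computed in each comparison, and not every value is printed. Also named are, for each member, the 3 genes of highest Pearson correlation (10 or more CPM in at least 1 culture). In each of 4 lists the 2 highest and 2 lowest ratios of day 7 are named. Members and lists were chosen with earlier results of these data known. Of 26124 gene identifiers, 26013 were found in GENCODE M21, and 5 of the 9 members in the RefSeq promoter table.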

Additional observations from a re-analysis of the deposited data

Results flagged for a closer look

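The course of Abca1 from day 3 to day 7 went in opposite directions in the libraries, with a ratio of 14.1 in control and 0.573 in heme. The difference was not tested, since each group was 1 library.

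Barcodes outside the comparisons also carried a signal. In barcodes without a hashtag, the heme to control ratio of Gpnmb was 2.08, and in barcodes with several hashtags it was 4.72. For Plin2 the ratio in barcodes with several hashtags was 2.60.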

How the results depend on the processing

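Of 80 recomputed counts of called members, 60 remained within 1.5 times the reported count. The count of 2 higher on day 5 became 1 with TMM, DESeq2 size factors, the mean of CPM per cell and division by the day 3 ratio, and the 2 higher on day 7 became 1 with the same 4 settings, in each case through Gpnmb. The 2 lower on day 5 became 1 after division by the day 3 ratio. The 3 lower on day 7 became 5 with the mean of CPM per cell, and the 2 lower on day 4 became 1 in cells over 5000 genes alone. In those cells the log2 ratio of Fabp4 on day 4 turned to 0.19. Of the 2 higher in Marco cells against heme cells without gate genes, 1 was counted with a gate of 1 UMI, of 100 CPM, or on all cells with 1 hashtag. For Arg1 cells the 2 higher became 1 with a gate of 1 UMI or on all such cells. For Marco against Arg1 cells the 2 higher became 0 with a gate of 1 UMI and 1 with a gate of 10 UMIs, of 100 CPM, or on all such cells. The causes were not tested. Gates on C1qb in both libraries were not compared, since 13 heme cells passed. No paired analysis was possible because each group was 1 library. Depth limits Pltp before day 7, Abca1 in heme, Fabp4 and Apoe, where few UMIs were counted.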
